A study of Mus musculus with 8 samples.

Results

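The interaction between the BDC2.5 transgene and the scid mutation was measured in the pancreas of 3 week old mice. It is the transgene effect in the NOD.scid background minus the transgene effect in the NOD background, that is (BDC2.5/NOD.scid − NOD.scid) − (BDC2.5/NOD − NOD). All 8 of the 8 arrays of the series entered it, as 2 arrays in each of 4 groups, and all 12422 probe sets that were not array controls were tested. With 1 probe set kept per gene symbol, the one with the highest mean, 8251 genes were described. NOD is an inbred strain that develops autoimmune diabetes, and every group has this strain background. NOD.scid mice carry the scid mutation of Prkdc, a kinase needed to join antigen receptor gene segments, and lack mature T and B cells. BDC2.5/NOD mice carry the rearranged T cell receptor genes of a diabetogenic CD4 T cell clone, so that most of their T cells bear this receptor. BDC2.5/NOD.scid mice carry both, and T cells with the transgenic receptor can form while T and B cells that need other receptors do not. For each sample 6 mice were used in each of 2 RNA isolations, which were then pooled, and the input to labelling was about 10 ug. The labels do not say whether each array had a pool of its own, so p-values measure the spread between arrays, which may be technical.

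CD4 T cells of the BDC2.5 clone recognise an antigen of the insulin-producing beta cells and enter the islets of transgenic mice at about weaning age. Cytokines of such T cells, interferon gamma above all, raise antigen presentation by MHC molecules and recruit and activate macrophages. Acinar cells, which make the digestive enzymes and most of the RNA of the pancreas, respond to nearby inflammation with Reg proteins and rely on a large endoplasmic reticulum with chaperones for folding secreted proteins. An interaction above 0 means that the transgene effect was higher, or less negative, in NOD.scid than in NOD, and one below 0 the reverse. All values are log2 levels or differences of log2 levels, and levels are compared between groups for a gene and never between genes.

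Transcripts of acinar cells gave similar sums in every group: 18 measured acinar genes summed to between 81985 and 87988 linear units on every array. The highest group means among them, 13.695 to 13.765, were close to the largest value on the arrays (13.78). Whether the sum still rises in proportion there was not tested. In whole tissue, fewer cells of a type and less RNA per cell cannot be told apart. The transcript of the mutated gene, Prkdc, was near the floor on all arrays (3.37 to 3.70) with an interaction of -0.01 (95% interval -0.36 to 0.33), and as scid is a point mutation its level checks no label. The BDC2.5/NOD arrays were closer to each other (standard deviation within the pair 0.0938) than the arrays of the other groups (0.131 to 0.143). A middle-region actin control probe set read 9.26 to 9.55 on the first NOD array, the first NOD.scid array and the second BDC2.5/NOD.scid array, and 6.95 to 7.74 on the other 5. Xist, the RNA that coats the silenced X chromosome in female cells, read 7.26 and 4.60 on the 2 NOD arrays. It read 4.19 and 5.92 on the 2 BDC2.5/NOD.scid arrays, and 3.35 to 3.71 on the other 4. The 2 arrays within NOD and within BDC2.5/NOD.scid thus did not agree in it. Both of these groups enter the interaction with a plus sign, so a group difference that goes with Xist cannot be told apart from it. The part of these array differences in the results below was not tested beyond the alternatives given with them.

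The interaction passed the threshold, a limma adjusted p under 0.05, for 586 of 12422 probe sets (4.72%) and for 444 of 8251 genes (5.38%). It was above 0 for 205 genes (2.48%) and below 0 for 239 (2.9%). The genes divided by what the transgene did in each background. In 29 genes the transgene effects passed the threshold in both backgrounds with opposite directions, 17 of them raised in NOD.scid and lowered in NOD and 12 the reverse. In 164 genes the effect passed the threshold in NOD.scid alone, in 182 genes in NOD alone, and in 28 genes in both with the same direction but unequal size. In 41 genes neither effect passed, although their difference did. The median size of the interaction was 1.11 in the opposite class, 0.90 in the unequal class, 0.73 in both one-sided classes and 0.63 where neither effect passed. All 444 interactions had the same sign when differences were taken between unlogged means.

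Taken by themselves, the transgene raised 203 genes (2.46%) and lowered 372 (4.51%) in NOD.scid, and it raised 343 (4.16%) and lowered 376 (4.56%) in NOD. These comparisons share no arrays. Of 166 genes past the threshold in both, 137 moved in the same direction and 29 in opposite directions. The interaction was called for 28 of the 137 and for all 29 of the opposite genes. Effects of opposite direction add up in the interaction, so the calls of the 29 were nearly fixed in advance. Leaving out 1 array at a time gave 147 to 377 interaction calls, with 147 and 161 when the first or second BDC2.5/NOD array was left out and 254 without the first NOD array. Counting the BDC2.5/NOD pair as 1 sample gave 148, and leaving out together the 3 arrays of high actin control gave 1170, a fit whose spread came from the BDC2.5/NOD pair alone.

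**Figure D1:**
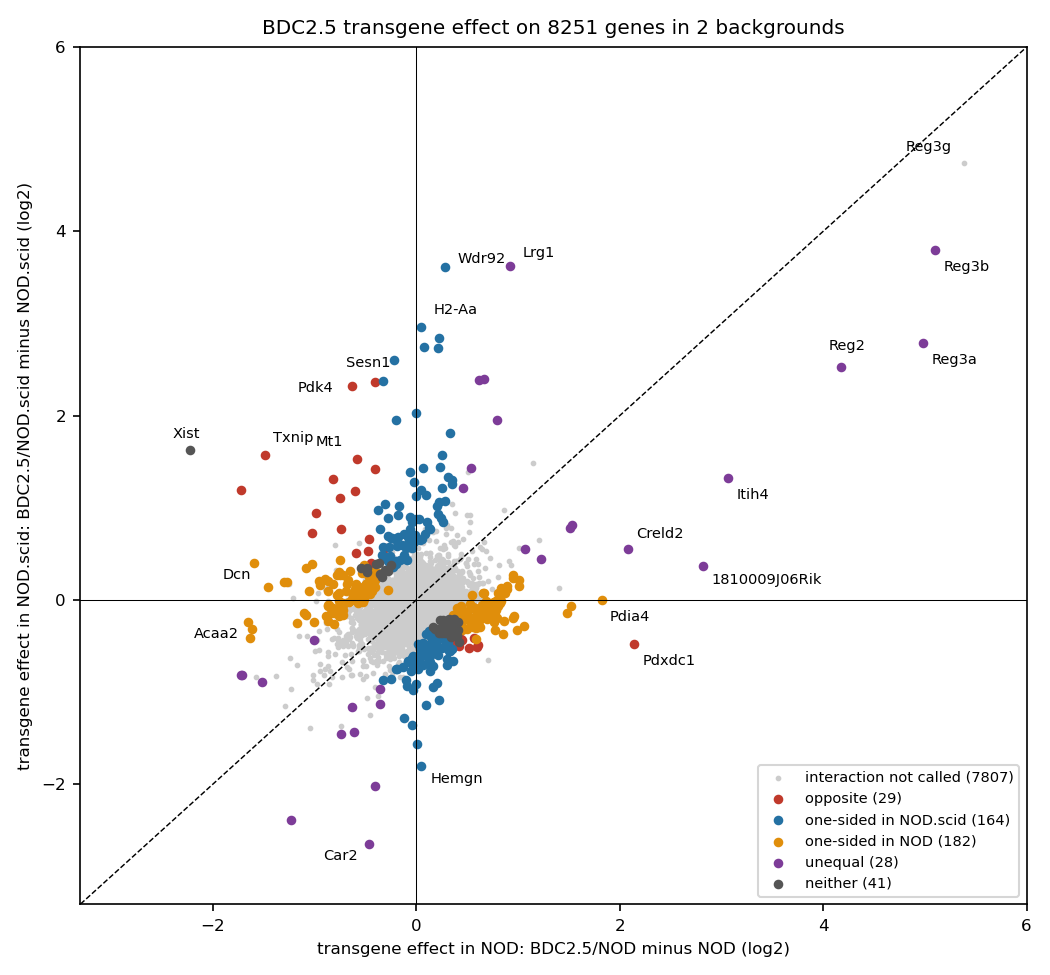
Transgene effect in NOD.scid (vertical axis, log2) against the transgene effect in NOD (horizontal axis, log2) for 8251 genes, with the 444 called genes coloured by class and the dashed line marking equal effects. Genes of the opposite class lie in the upper left and lower right, such as Txnip (-1.49, 1.57) and Pdxdc1 (2.14, -0.47), one-sided genes lie along an axis, and Reg genes lie at the far right.

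The 4 group means showed which group differed from the rest. A group was taken to stand apart where the gap between its mean and the next exceeded the range of the other 3 means. Such a gap itself makes an interaction, so the shares among called genes were not independent of the call. BDC2.5/NOD stood apart in 128 of the 444 called genes (28.8%), high in 85 and low in 43, and BDC2.5/NOD.scid in 106 (23.9%), high in 71 and low in 35. Over all 8251 genes the shares were 16.5% and 13.2%. NOD.scid stood apart in 47 called genes (10.6%, against 9.96% of all genes), high in 33 of them, and NOD in 23 (5.18%, against 13.8%). In the remaining 140 genes no group stood apart. A one-sided gene could therefore arise at either end of the comparison: of 164 genes one-sided in NOD.scid, BDC2.5/NOD.scid stood apart in 60 as high and 35 as low, and NOD.scid, the group without the transgene, in 27 as high and 14 as low.

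**Figure D2:**
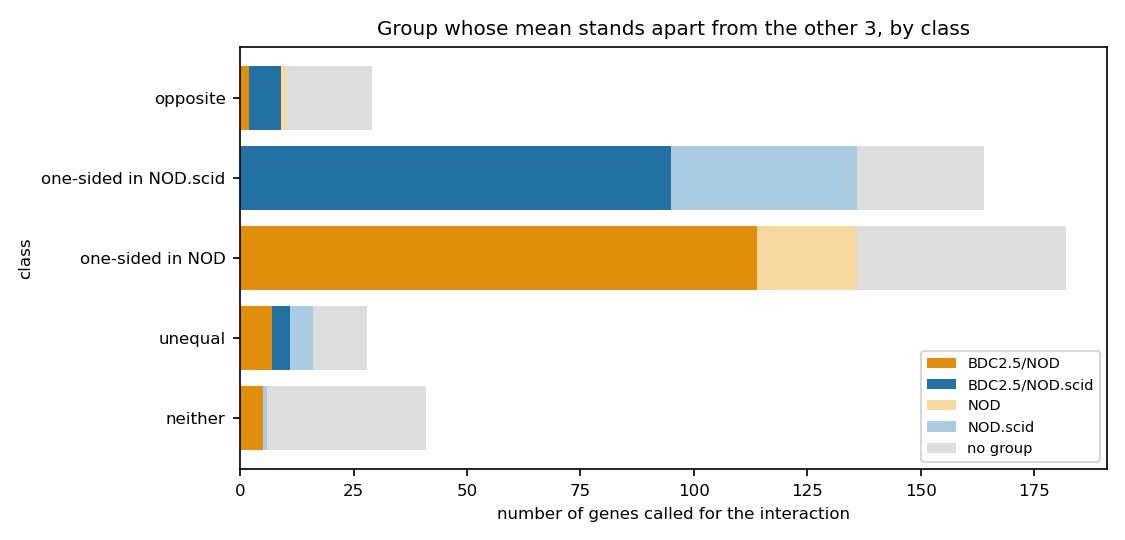
Number of genes called for the interaction (horizontal axis) by class (vertical axis), coloured by the group whose mean stands apart from the other 3. Genes one-sided in NOD are mostly those in which BDC2.5/NOD was high (73) or low (41), and genes one-sided in NOD.scid those in which BDC2.5/NOD.scid was high (60) or low (35).

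The opposite class included genes of fuel choice and stress control. Txnip encodes an inhibitor of thioredoxin and of glucose uptake. Txnip read 7.04 and 7.11 in NOD against 5.55 and 5.62 in BDC2.5/NOD, and 6.82 and 6.64 in NOD.scid against 8.24 and 8.37 in BDC2.5/NOD.scid. The 2 arrays of BDC2.5/NOD lay below and those of BDC2.5/NOD.scid above every other array. The transgene lowered Txnip by 2.81-fold in NOD and raised it 2.98-fold in NOD.scid, an interaction of 3.06 (SE 0.13, limma adjusted p 3.45e-07). A second, dimmer Txnip probe set had an interaction of 0.31 that did not pass (limma adjusted p 0.417). Pdk4 encodes a kinase that shuts off pyruvate dehydrogenase and so spares glucose when fatty acids are burnt. Pdk4 read 5.16 and 5.17 in NOD against 4.66 and 4.41 in BDC2.5/NOD, and 4.68 and 4.79 in NOD.scid against 7.11 and 7.01 in BDC2.5/NOD.scid. The BDC2.5/NOD.scid arrays stood above all others, and Pdk4 rose 5.0-fold there while it fell 1.55-fold in NOD, with an interaction of 2.95 (SE 0.15, limma adjusted p 3.87e-07).

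Sesn1, a p53-responsive inhibitor of mTORC1 signalling, had the largest rise of the opposite class in NOD.scid. Sesn1 read 6.05 and 6.25 in NOD against 5.72 and 5.79 in BDC2.5/NOD, and 4.78 and 4.80 in NOD.scid against 7.21 and 7.11 in BDC2.5/NOD.scid. NOD.scid was the lowest group and BDC2.5/NOD.scid the highest, with no overlap of any groups, and the effects of 2.37 and -0.40 gave an interaction of 2.77 (SE 0.14, limma adjusted p 3.87e-07). Sgk1, a kinase induced by glucocorticoids and by cell stress, moved by nearly the same amount in both directions. Sgk1 read 7.52 and 7.54 in NOD against 6.48 and 6.61 in BDC2.5/NOD, and 6.30 and 5.88 in NOD.scid against 7.13 and 6.93 in BDC2.5/NOD.scid. It rose by 0.94 in NOD.scid and fell by 0.99 in NOD, so that the interaction was 1.93 (SE 0.18, limma adjusted p 5.46e-05), and the group without scid and transgene was its highest. Gadd45b, a stress-induced regulator of MAP kinase signalling, had a smaller interaction of 0.87 (SE 0.12, limma adjusted p 0.00138), and its second probe set gave 2.43.

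Both major metallothionein genes were in the opposite class. Metallothioneins bind zinc and copper, and their genes are induced by metals, glucocorticoids and inflammation. Mt1 read 10.44 and 10.38 in NOD against 9.88 and 9.77 in BDC2.5/NOD, and 9.70 and 9.78 in NOD.scid against 11.34 and 11.20 in BDC2.5/NOD.scid. Mt2 read 9.93 and 9.97 in NOD against 9.53 and 9.56 in BDC2.5/NOD, and 9.46 and 9.52 in NOD.scid against 11 and 10.82 in BDC2.5/NOD.scid. BDC2.5/NOD.scid was highest for both genes with no overlap, while the BDC2.5/NOD arrays lay below the NOD arrays. The interactions were 2.12 (SE 0.12, limma adjusted p 6.08e-07) for Mt1 and 1.83 (SE 0.12, limma adjusted p 1.86e-06) for Mt2. Of the 4 metallothionein genes measured these 2 were called (5.38% of all genes were), and no setting that was tried ended either call.

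The promoters of Mt1 and Mt2 are printed because these genes moved together and because metal response elements are the best known control sites of this family. The sequences are RefSeq's, build GRCm38.p6, 200 bases up to the annotated start, read along the gene's strand, with matches to the core TGCACNC or TGCGCNC on either strand in capitals.
Mt1, chr8:94178889-94179088, plus strand: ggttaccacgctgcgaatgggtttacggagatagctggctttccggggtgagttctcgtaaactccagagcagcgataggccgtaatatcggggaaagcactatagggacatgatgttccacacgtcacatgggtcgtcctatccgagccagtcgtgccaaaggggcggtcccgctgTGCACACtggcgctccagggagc
Mt2, chr8:94172418-94172617, plus strand: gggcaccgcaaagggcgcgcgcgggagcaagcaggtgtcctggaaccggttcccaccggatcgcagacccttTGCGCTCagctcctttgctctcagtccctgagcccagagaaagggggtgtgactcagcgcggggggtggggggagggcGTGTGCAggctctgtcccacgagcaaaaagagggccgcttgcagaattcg
Over windows from 250 bases before to 50 after the start, the TGCACNC core was found in 4 of 4 metallothionein promoters and in 12.6% of 32851 windows, and the TGCGCNC core in 2 of 4, Mt1 and Mt2, and in 15.4% of windows. The 2 cores cannot overlap on the same strand. A match is a description of the letters and was not tested as a site.

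Genes of immune cells were found in the opposite class as well. Cytip encodes a lymphocyte and dendritic cell protein that limits adhesion, and Cd53 a tetraspanin of white blood cells. Cytip read 5.44 and 5.57 in NOD against 4.58 and 4.79 in BDC2.5/NOD, and 5.08 and 5.01 in NOD.scid against 6.58 and 6.12 in BDC2.5/NOD.scid. BDC2.5/NOD.scid was highest without overlap, and the interaction of Cytip was 2.13 (SE 0.20, limma adjusted p 5.2e-05). A second, dimmer Cytip probe set gave 0.51 and did not pass (limma adjusted p 0.149). Cd53 rose by 1.19 in NOD.scid and fell by 0.60 in NOD, an interaction of 1.79 (SE 0.22, limma adjusted p 0.000559). Igkv6-23, an immunoglobulin kappa variable gene segment, differed in another way, since NOD was its highest group. Igkv6-23 read 6.03 and 5.76 in NOD against 4.13 and 4.22 in BDC2.5/NOD, and 3.81 and 3.57 in NOD.scid against 4.82 and 4.96 in BDC2.5/NOD.scid. No groups overlapped, and the interaction was 2.92 (SE 0.17, limma adjusted p 8.91e-07). A probe set annotated to several kappa segments and the kappa constant region had group means of 7.35 in NOD and 5.64 with the transgene, and of 5.33 in NOD.scid and 6.35 with the transgene, and an interaction of 2.74 (SE 0.14, limma adjusted p 3.87e-07). BDC2.5/NOD.scid mice thus had a higher kappa signal than NOD.scid mice, although the labels give both as scid, and what this rests on was not tested. The 11 measured B cell genes summed to 427 to 452 in NOD against 411 to 441 in BDC2.5/NOD. They summed to 377 to 417 in NOD.scid against 426 to 440 in BDC2.5/NOD.scid. Jchain (0.67) was called above 0, as was Ighm (0.78). The other Ighm probe sets were dimmer and did not pass, with interactions of -0.36 to 0.28. Of the 11 genes these 2 were called above 0, against 2.48% of all genes. That count was 0 without either BDC2.5/NOD array or the second NOD array, and 1 without either BDC2.5/NOD.scid array or the first NOD.scid array.

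In the other direction, 12 genes of the opposite class rose with the transgene in NOD and fell in NOD.scid. Pdxdc1, a pyridoxal-dependent decarboxylase domain protein, had by far the largest difference. Pdxdc1 read 5.16 and 5.15 in NOD against 7.20 and 7.39 in BDC2.5/NOD, and 7.57 and 7.36 in NOD.scid against 7.10 and 6.88 in BDC2.5/NOD.scid. NOD alone was low, the 3 other groups lay within 6.88 to 7.57, and the interaction was -2.62 (SE 0.16, limma adjusted p 8.91e-07). The 2 dimmer probe sets of Pdxdc1 went the other way, with interactions of 1.002 (limma adjusted p 0.00205) and 0.55 (0.0299), so the direction for this gene depends on the probe set. The rest were smaller and more even. Dynll1 encodes a light chain of cytoplasmic dynein. Dynll1 read 7.95 and 8.03 in NOD against 8.47 and 8.55 in BDC2.5/NOD, and 7.99 and 8.03 in NOD.scid against 7.51 and 7.47 in BDC2.5/NOD.scid. Dynll1 rose by 0.52 in NOD and fell by 0.52 in NOD.scid, so the groups without the transgene coincided while the transgenic groups lay on either side (interaction -1.03 (SE 0.12, limma adjusted p 0.000229)). Sec61a1, the pore of the channel through which secreted proteins enter the endoplasmic reticulum, also rose in NOD and fell in NOD.scid. Sec61a1 read 7.83 and 7.86 in NOD against 8.31 and 8.25 in BDC2.5/NOD, and 8.07 and 8.16 in NOD.scid against 7.66 and 7.70 in BDC2.5/NOD.scid. Its interaction was -0.87 (SE 0.12, limma adjusted p 0.000915), and its second probe set gave -1.02. Zfpm1, a cofactor of GATA factors, had an interaction of -1.10, H13, a signal peptide peptidase of the endoplasmic reticulum, -1.09, Uqcrq, a subunit of respiratory complex III, -0.98, and Isg20, an interferon-induced exonuclease, -0.92.

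**Figure D3:**
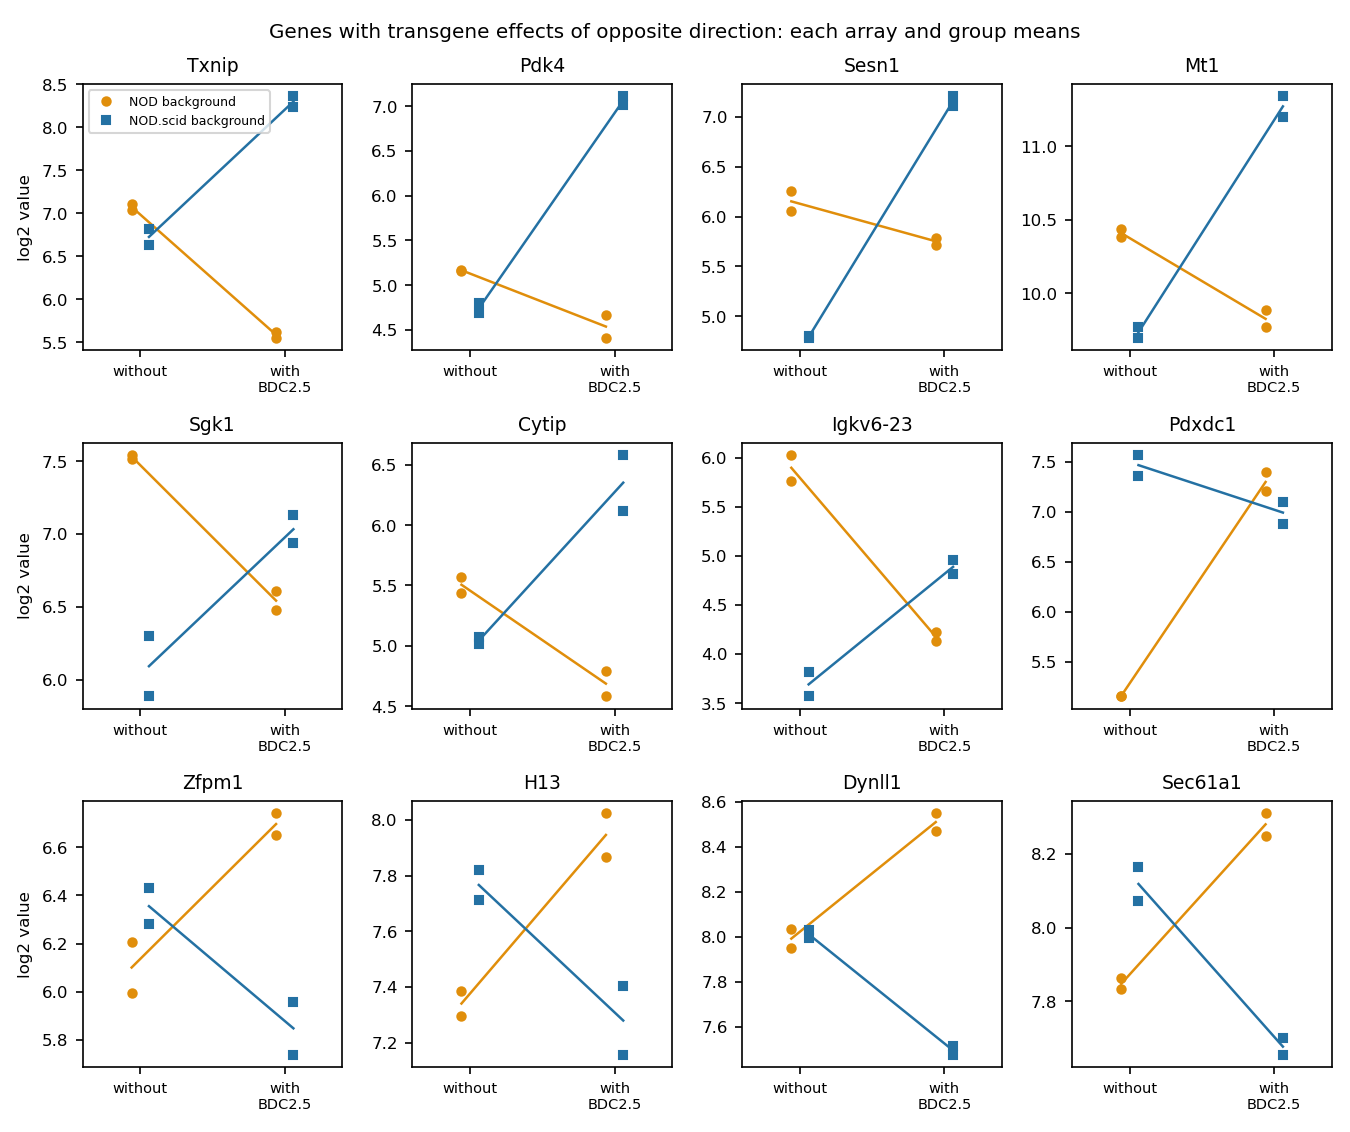
Log2 value on each array (vertical axes) without and with the BDC2.5 transgene (horizontal axes) in the NOD background (circles) and the NOD.scid background (squares) for 12 genes of the opposite class, with lines joining group means. The lines slope in opposite directions; Txnip fell from 7.04 and 7.11 to 5.55 and 5.62 in NOD and rose from 6.82 and 6.64 to 8.24 and 8.37 in NOD.scid.

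Pdk4 belongs with a wider set of genes of fatty acid oxidation, the mitochondrial breakdown of fatty acids. Of 24 measured genes of this pathway 7 were called, all above 0, against 2.48% of all genes, and the medians were 0.09 for the effect in NOD.scid and -0.30 for the effect in NOD, where all genes had -0.01 and 0.04. Cpt1a, which carries fatty acids to the mitochondrion and sets the rate of their oxidation, fell with the transgene in NOD. Cpt1a read 7.11 and 7.01 in NOD against 5.49 and 5.45 in BDC2.5/NOD, and 6.77 and 6.46 in NOD.scid against 7.11 and 6.92 in BDC2.5/NOD.scid. BDC2.5/NOD lay below the other 3 groups without overlap, the effect in NOD.scid was 0.40 (95% interval 0.15 to 0.65), and the interaction was 1.99 (SE 0.16, limma adjusted p 1.48e-05). Acaa2, the thiolase of the last step, behaved alike. Acaa2 read 8.70 and 8.77 in NOD against 7.08 and 7.08 in BDC2.5/NOD, and 8.67 and 8.43 in NOD.scid against 8.36 and 8.27 in BDC2.5/NOD.scid. Its interaction was 1.42 (SE 0.13, limma adjusted p 5.84e-05), with an effect in NOD.scid of -0.24 (95% interval -0.44 to -0.03). Eci2 (1.42), Etfa (1.05), Acot1 (1.09) and Acadm (1.11) were the other called members. Summed over the 24 genes, linear values were 873 to 881 on the BDC2.5/NOD arrays and 1296 to 1472 on the other 6. Leaving out 1 array at a time left 5 to 7 calls.

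Genes one-sided in NOD.scid included genes of antigen presentation. MHC class II molecules present peptides to CD4 T cells, and of 11 measured genes of that pathway 5 were called, all above 0 (2.48% of all genes) and all one-sided in NOD.scid. H2-Aa encodes a class II alpha chain. H2-Aa read 5.75 and 6.06 in NOD against 5.95 and 5.97 in BDC2.5/NOD, and 5.64 and 5.80 in NOD.scid against 8.82 and 8.56 in BDC2.5/NOD.scid. BDC2.5/NOD.scid was high and the other 6 arrays lay within 5.64 to 6.06. The interaction was 2.91 (SE 0.17, limma adjusted p 8.91e-07), and the transgene effect in NOD was 0.05 (95% interval -0.21 to 0.32). Ctss, a lysosomal protease that cuts the invariant chain, had an interaction of 2.82 (SE 0.14, limma adjusted p 3.87e-07), Cd74, the invariant chain itself, 2.52 (SE 0.33), H2-Eb1 2.04 and H2-Ab1 1.48. Cd74 read 6.37 and 6.01 in NOD against 6.40 and 6.41 in BDC2.5/NOD, and 5.93 and 5.56 in NOD.scid against 8.0 and 8.95 in BDC2.5/NOD.scid, so its BDC2.5/NOD.scid arrays differed more from each other than those of the other class II genes. The count was 5 with any 1 array left out.

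MHC class I molecules present peptides from inside the cell to CD8 T cells, and 6 of 12 measured genes of that pathway were called, all above 0 (2.48% of all genes). B2m, their shared light chain, was one-sided. B2m read 6.71 and 6.92 in NOD against 7.0 and 7.08 in BDC2.5/NOD, and 7.02 and 7.03 in NOD.scid against 9.97 and 9.77 in BDC2.5/NOD.scid. The interaction of B2m was 2.62 (SE 0.14, limma adjusted p 4.05e-07) with an effect in NOD of 0.22 (95% interval 0.01 to 0.44). The heavy chains H2-K1 and H2-D1 rose in both backgrounds and by more in NOD.scid, which put them in the unequal class. H2-K1 read 6.98 and 7.10 in NOD against 7.72 and 7.69 in BDC2.5/NOD, and 7.02 and 7.15 in NOD.scid against 9.57 and 9.39 in BDC2.5/NOD.scid. H2-K1 thus rose by 2.40 in NOD.scid and 0.66 in NOD (interaction 1.74 (SE 0.13, limma adjusted p 1e-05)), and H2-D1 by 2.38 and 0.62 (interaction 1.77). Another H2-K1 probe set gave 1.25, and a dimmer one gave -0.14 and did not pass (limma adjusted p 0.66). The immunoproteasome subunits Psmb8 (1.37) and Psmb9 (1.14) were one-sided in NOD.scid, and the proteasome activator Psme1 (0.72) one-sided in NOD, where it fell by 0.47. With 1 array left out the class I count was 5 or 6.

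Macrophage markers moved with them. Of 24 measured macrophage genes 9 were called, all above 0 (2.48% of all genes), with medians of 0.32 for the effect in NOD.scid and -0.01 for that in NOD. Lyz2, lysozyme of macrophages and neutrophils, had an interaction of 2.15 (SE 0.22, limma adjusted p 0.000144). Cd14 read 6.31 and 6.35 in NOD against 6.36 and 6.29 in BDC2.5/NOD, and 6.40 and 6.47 in NOD.scid against 7.66 and 7.47 in BDC2.5/NOD.scid; Cd14 is the receptor for bacterial lipopolysaccharide. The Cd14 arrays of BDC2.5/NOD.scid lay above all others, the effect in NOD was -0.01 (95% interval -0.21 to 0.20), and the interaction was 1.13 (SE 0.13, limma adjusted p 0.000299). The complement genes C1qa (0.78) and C1qc (0.79), Cd52 (1.13), Laptm5 (0.92), Marco (0.66) and Cd68 (0.61) were called too. Summed linear values of the 24 genes were 765 to 810 in NOD against 797 to 799 in BDC2.5/NOD, and 826 to 849 in NOD.scid against 1227 to 1342 in BDC2.5/NOD.scid, and their part in the MHC results was not tested. The 18 measured T cell genes summed to 514 to 578 on all arrays, highest in BDC2.5/NOD.scid (566 to 578). Of these 1 was called, Ccl5, or 5.56% of the list against 5.38% of all genes. The count was 0 under a filter on low values, which kept only probe sets with a mean above the median and left Ccl5 out.

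Chemokines and interferon-induced genes added to this group. Of 17 measured chemokine genes 4 were called, all above 0 (2.48% of all genes) and one-sided in NOD.scid, and 2 under the filter on low values. Ccl9 had an interaction of 1.02 (SE 0.13, limma adjusted p 0.000828), Ccl8 of 0.96, Cxcl9, which interferon gamma induces, of 0.96 and Ccl5, which T cells make, of 0.87. Ccl8 read 4.71 and 4.74 in NOD against 4.97 and 4.97 in BDC2.5/NOD, and 4.73 and 4.98 in NOD.scid against 6.15 and 5.98 in BDC2.5/NOD.scid. Ccl8 was thus high in BDC2.5/NOD.scid without overlap. Of 19 measured interferon-response genes 4 were called, all above 0 (2.48% of all genes): Iigp1 (1.32), Cxcl9, Gbp2 (0.65) and Gbp3 (0.65). That count was 1 under the filter on low values and 1 to 3 with 1 array left out. It fell to 1 without either BDC2.5/NOD array or the first NOD array and to 2 without the second BDC2.5/NOD.scid array, the first NOD.scid array or the second NOD array.

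Acute-phase proteins, made in inflammation, were called in 6 of 21 measured genes, 5 above 0, against 5.38% of all genes in either direction. Saa3, serum amyloid A of macrophages and epithelia, was one-sided in NOD.scid. Saa3 read 3.58 and 3.83 in NOD against 3.72 and 3.84 in BDC2.5/NOD, and 3.54 and 3.54 in NOD.scid against 6.39 and 6.19 in BDC2.5/NOD.scid. Its interaction was 2.68 (SE 0.16, limma adjusted p 1.1e-06). Lrg1, a leucine-rich glycoprotein induced by interleukin 6, rose in both backgrounds, by 3.63 in NOD.scid and 0.92 in NOD. Lrg1 read 4.19 and 4.20 in NOD against 5.07 and 5.16 in BDC2.5/NOD, and 4.35 and 4.11 in NOD.scid against 7.84 and 7.87 in BDC2.5/NOD.scid. BDC2.5/NOD.scid was highest and BDC2.5/NOD next, and the interaction was 2.71 (SE 0.14, limma adjusted p 3.98e-07). Cp (1.45) and Hp (0.72), ceruloplasmin and haptoglobin, were one-sided in NOD.scid, Vtn, vitronectin, fell less in NOD.scid (0.63), and Itih4 went the other way, as given with the Reg genes.

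Immediate-early and stress-response genes, which are switched on within minutes of a stimulus, were called in 11 of 33 measured members, all above 0 (2.48% of all genes), with medians of 0.24 in NOD.scid and -0.01 in NOD. They came from 3 classes. Cebpb (0.91), Cebpd (0.89), Dusp1 (0.88), Klf6 (0.98), Nfkbia (0.73) and Zfp36 (0.58) rose in NOD.scid, Btg1 (1.16), Ifrd1 (1.22) and Myc (0.99) fell in NOD, and Sgk1 and Gadd45b did both. Btg1 read 5.77 and 5.56 in NOD against 4.66 and 4.75 in BDC2.5/NOD, and 5.60 and 5.20 in NOD.scid against 5.62 and 5.58 in BDC2.5/NOD.scid; Btg1 is an inhibitor of cell division. BDC2.5/NOD was low for Btg1 without overlap. The count was 4 without the first BDC2.5/NOD array, 5 without the second or without the first NOD array, and 7 without the second NOD.scid or the second BDC2.5/NOD.scid array. Errfi1, an inhibitor of the EGF receptor that is induced by stress and growth factors, had a larger interaction of 2.70 (SE 0.13, limma adjusted p 3.87e-07), with 1.38 in a second probe set. Errfi1 read 6.15 and 6.23 in NOD against 5.83 and 5.90 in BDC2.5/NOD, and 5.32 and 5.51 in NOD.scid against 7.78 and 7.81 in BDC2.5/NOD.scid. Its effect in NOD was -0.33 (95% interval -0.53 to -0.12), which narrowly missed the threshold.

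A further set was one-sided in NOD.scid because NOD.scid mice without the transgene stood apart. Wdr92, a WD repeat protein, had the largest such interaction. Wdr92 read 11.33 and 11.17 in NOD against 11.46 and 11.60 in BDC2.5/NOD, and 8.65 and 7.94 in NOD.scid against 11.86 and 11.94 in BDC2.5/NOD.scid. NOD.scid alone was low, its arrays differed from each other more than those of other groups, and the interaction was 3.33 (SE 0.24, limma adjusted p 4.88e-06). Genes of red blood cells were high in the same group: of 11 measured erythrocyte genes 5 were called, all below 0, against 2.9% of all genes. Hemgn encodes a nuclear protein of red cell precursors. Hemgn read 2.58 and 2.39 in NOD against 2.49 and 2.56 in BDC2.5/NOD, and 4.60 and 4.35 in NOD.scid against 2.72 and 2.63 in BDC2.5/NOD.scid. The interaction of Hemgn was -1.84 (SE 0.16, limma adjusted p 2.59e-05), that of the band 3 anion exchanger Slc4a1 -0.91, of the carbonic anhydrase Car1 -0.80 and of the globins Hbb-b2 -0.82 and Hba-a1 -0.53. Summed erythrocyte values were 2322 to 2593 in NOD against 1653 to 1681 in BDC2.5/NOD, and 4845 to 5068 in NOD.scid against 2221 to 2347 in BDC2.5/NOD.scid. The count of 5 became 2 without the first BDC2.5/NOD array and 3 without the second, the first NOD.scid or the second NOD array.

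Neutrophil genes had the same shape, with 3 of 14 measured genes called, all below 0 (2.9% of all genes). S100a9 and S100a8 form calprotectin, the main cytosolic protein of neutrophils, and Camp encodes their antimicrobial peptide. S100a9 read 4.29 and 4.37 in NOD against 3.93 and 3.92 in BDC2.5/NOD, and 6.08 and 6.20 in NOD.scid against 4.24 and 3.99 in BDC2.5/NOD.scid. NOD.scid was high, and the transgene lowered S100a9 by 2.02 in NOD.scid and by 0.41 in NOD (interaction -1.61 (SE 0.15, limma adjusted p 5.84e-05)). Camp read 5.51 and 5.54 in NOD against 5.49 and 5.33 in BDC2.5/NOD, and 6.80 and 6.76 in NOD.scid against 5.50 and 5.49 in BDC2.5/NOD.scid. The interaction of Camp was -1.16 (SE 0.13, limma adjusted p 0.000216) and that of S100a8 -1.16, the last lost in 10 of 20 alternative settings. Summed neutrophil values were 302 to 319 in NOD against 276 to 292 in BDC2.5/NOD, and 560 to 591 in NOD.scid against 299 to 333 in BDC2.5/NOD.scid. Mgst3 (-1.57), a microsomal glutathione transferase, and Prdx2 (-1.32), a peroxiredoxin that is abundant in red cells, were high in NOD.scid in the same way. So were Tff1 (-1.31), a trefoil peptide of mucus, and Psmb3 (-0.91), a proteasome subunit. Dimmer probe sets of Prdx2 gave 0.08 and 0.24, another of Mgst3 gave -0.26, and these did not pass. Car2, a carbonic anhydrase of duct cells and of red cells, fell by 2.64 in NOD.scid and by 0.47 in NOD, and its interaction of -2.18 (SE 0.15, limma adjusted p 3.64e-06) was the largest of this shape. Car2 read 4.10 and 4.18 in NOD against 3.57 and 3.77 in BDC2.5/NOD, and 6.70 and 6.85 in NOD.scid against 4.17 and 4.08 in BDC2.5/NOD.scid. The part of the red cell and neutrophil markers in these results was not tested.

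Genes one-sided in NOD included folding enzymes of the endoplasmic reticulum. Of 24 measured chaperone and folding genes 8 were called, all below 0 (2.9% of all genes), with medians of 0.02 for the transgene effect in NOD.scid and 0.43 in NOD. Pdia4 encodes a disulfide isomerase. Pdia4 read 5.78 and 5.95 in NOD against 7.85 and 7.53 in BDC2.5/NOD, and 5.89 and 6.13 in NOD.scid against 6.11 and 5.91 in BDC2.5/NOD.scid. BDC2.5/NOD was high and the other 6 arrays lay within 5.78 to 6.13. Pdia4 rose by 1.82 in NOD, the effect in NOD.scid was 0.00 (95% interval -0.28 to 0.28), and the interaction was -1.82 (SE 0.18, limma adjusted p 9.52e-05). Pdia3, another disulfide isomerase, had an interaction of -1.62 (SE 0.33, limma adjusted p 0.0147), Dnajb9, a co-chaperone, -1.15, Manf, a secreted stress factor, -0.85, and Dnajc3, an inhibitor of the kinase PERK, -0.71. In the unequal class were Creld2, Hspa5 and Hsp90b1. Hspa5 read 8.41 and 8.51 in NOD against 9.83 and 10.15 in BDC2.5/NOD, and 7.96 and 7.78 in NOD.scid against 8.83 and 8.53 in BDC2.5/NOD.scid. Hspa5, the main chaperone of the compartment, known as BiP, rose by 1.53 in NOD and 0.81 in NOD.scid, and its interaction of -0.72 (SE 0.17, limma adjusted p 0.0365) was lost in 9 of 20 alternative settings. Creld2, a stress-induced isomerase, rose by 2.08 and 0.56 (interaction -1.52 (SE 0.15, limma adjusted p 7.08e-05)), and Hsp90b1, the chaperone GRP94, by 1.06 and 0.55 (interaction -0.51). The count of 8 became 5 in a fit without limma's trend of the spread with the level. It was 3 without the second BDC2.5/NOD array or the first NOD array, and 5 without the first BDC2.5/NOD, the second BDC2.5/NOD.scid, the first NOD.scid or the second NOD array. Summed linear values of the 24 genes were 3275 to 3430 in NOD against 4941 to 5383 in BDC2.5/NOD, and 2559 to 2910 in NOD.scid against 3005 to 3158 in BDC2.5/NOD.scid.

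The promoters of Hspa5, Creld2, Hsp90b1 and Dnajc3 are printed because their genes moved together and hold the ER stress response element, the binding site of ATF6 with NF-Y. They are RefSeq sequences of build GRCm38.p6, 200 bases up to the annotated start along the gene's strand, with the match to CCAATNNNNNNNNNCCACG on either strand in capitals.
Hspa5, chr2:34771890-34772089, plus strand: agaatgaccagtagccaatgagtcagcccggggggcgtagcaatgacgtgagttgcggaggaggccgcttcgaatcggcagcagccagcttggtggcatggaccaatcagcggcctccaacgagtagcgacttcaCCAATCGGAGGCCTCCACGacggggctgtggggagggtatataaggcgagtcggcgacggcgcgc
Creld2, chr15:88819446-88819645, plus strand: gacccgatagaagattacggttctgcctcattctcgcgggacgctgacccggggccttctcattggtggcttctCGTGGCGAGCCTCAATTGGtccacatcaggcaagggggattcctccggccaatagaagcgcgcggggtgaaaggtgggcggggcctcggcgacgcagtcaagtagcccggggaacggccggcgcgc
Hsp90b1, chr10:86705445-86705644, minus strand: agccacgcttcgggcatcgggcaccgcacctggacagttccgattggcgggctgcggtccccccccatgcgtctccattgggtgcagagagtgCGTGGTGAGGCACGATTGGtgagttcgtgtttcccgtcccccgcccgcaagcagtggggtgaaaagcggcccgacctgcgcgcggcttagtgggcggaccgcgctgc
Dnajc3, chr14:118937732-118937931, plus strand: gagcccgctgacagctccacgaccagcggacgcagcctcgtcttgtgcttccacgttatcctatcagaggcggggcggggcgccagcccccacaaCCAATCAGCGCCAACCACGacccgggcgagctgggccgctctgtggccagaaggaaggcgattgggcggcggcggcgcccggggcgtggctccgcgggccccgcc
In windows from 250 bases before to 50 after the start, the element was found in 0.119% of 32851 promoters, in 7 of the 20 measured chaperone genes with a RefSeq promoter, and in 4 of the 7 called ones. The match runs forward in Hspa5 and Dnajc3 and in reverse in Creld2 and Hsp90b1. Whether the element acts in these mice was not tested.

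Other motifs were counted in the same windows for the list each is known for. The heat shock element GAANNTTCNNGAA was in 0.603% of windows and in 4 of 20 cytosolic chaperone promoters, of which Hsph1 was called. The interferon element core GAAANNGAAA was in 3.44% of windows and in 2 of 11 class I promoters, B2m and Psme1. The STAT site TTCNNNGAA was in 8.3% of windows and in 1 of 5 Reg promoters, that of Reg3b. The amino acid response core TGATGNAAN was in 3.95% of windows and in 7 of 18 promoters of the ATF4 list, none of them called. Both strands were searched for each, and matches of different motifs were counted separately even where they overlap.

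Genes of protein entry and transport in the secretory pathway were called below 0 too, in 10 of 41 measured translocon, glycosylation and coat genes, against 2.9% of all genes, with median effects of -0.17 in NOD.scid and 0.08 in NOD. Of the 10, 4 were one-sided in NOD.scid and 3 in NOD. Over the whole list of 41, 11 genes fell in NOD.scid (4.51% of all genes did) and 0 rose (2.46%). In NOD 5 of the list rose (4.16% of all genes did) and 1 fell (4.56%). Ssr1 read 4.97 and 5.34 in NOD against 6.18 and 6.26 in BDC2.5/NOD, and 5.34 and 5.53 in NOD.scid against 5.21 and 5.10 in BDC2.5/NOD.scid; Ssr1 is a subunit of the translocon-associated complex. BDC2.5/NOD was high without overlap, and the interaction of Ssr1 was -1.34 (SE 0.18, limma adjusted p 0.000861). Sec61b, Kdelr2, Ddost and Dad1 fell in NOD.scid alone. Dad1 is a subunit of the oligosaccharyl transferase. Dad1 read 9.38 and 9.46 in NOD against 9.74 and 9.70 in BDC2.5/NOD, and 9.73 and 9.61 in NOD.scid against 9.12 and 8.80 in BDC2.5/NOD.scid. Dad1 fell by 0.71 in NOD.scid, where BDC2.5/NOD.scid was low, and its interaction was -1.01 (SE 0.15, limma adjusted p 0.00197). Kdelr3 (-1.01), Lman2 (-0.89), Ssr2 (-0.77), Sec61b (-0.73), Kdelr2 (-0.66), Ddost (-0.63) and Copz1 (-0.56) were the others beside Sec61a1. The count was 6 without either BDC2.5/NOD array. Targets of ATF4, the factor of the amino acid response, were called in 4 of 23 measured genes, all below 0 (2.9% of all genes) and one-sided in NOD: Atf5 (-0.91 (SE 0.14, limma adjusted p 0.00265)), Psat1 (-0.83), Eif4ebp1 (-0.77) and Atf4 itself (-0.52). That count was 7 under the filter on low values, 1 without the second BDC2.5/NOD array and 2 without the first BDC2.5/NOD, the second BDC2.5/NOD.scid, the first NOD.scid or the first NOD array.

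Outside the endoplasmic reticulum, Hsph1, a cytosolic chaperone of the heat shock response, had a similar shape. Hsph1 read 4.67 and 4.80 in NOD against 6.17 and 6.36 in BDC2.5/NOD, and 4.27 and 4.52 in NOD.scid against 4.43 and 4.24 in BDC2.5/NOD.scid. Its interaction was -1.59 (SE 0.17, limma adjusted p 0.000164), and of 26 measured cytosolic chaperones 3 were called below 0 and 1, Cct5, above 0, against 2.9% and 2.48% of all genes. That count of 4 was 1 without either BDC2.5/NOD array or the second NOD array. A second, dimmer Cct5 probe set gave 0.10 and did not pass. Fdps, which makes farnesyl diphosphate for cholesterol, rose in NOD with an interaction of -1.32 (SE 0.15, limma adjusted p 0.000229). A second Fdps probe set gave -0.79, and the remaining ones, which were dimmer, gave 0.01 and -0.01 and did not pass. Fasn, fatty acid synthase, had an interaction of -1.0 (SE 0.19, limma adjusted p 0.00889), a call lost without either BDC2.5/NOD array. Among 18 measured acinar genes 4 were called, against 5.38% of all genes, and 1 without either BDC2.5/NOD array or the second NOD array and 2 without the first BDC2.5/NOD.scid array. Sycn, a protein of zymogen granules, rose by 0.95 in NOD with an effect of 0.28 in NOD.scid (95% interval 0.08 to 0.47, interaction -0.68), and Pla2g1b, pancreatic phospholipase A2, rose in both (interaction -0.73). Klk1, tissue kallikrein (0.69), and Cuzd1 (0.62) were above 0.

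Genes whose fall passed the threshold in NOD alone included matrix and lipid transport genes. Dcn encodes decorin, a proteoglycan of fibroblasts. Dcn read 8.61 and 8.33 in NOD against 6.91 and 7.12 in BDC2.5/NOD, and 8.37 and 7.82 in NOD.scid against 8.13 and 8.34 in BDC2.5/NOD.scid. BDC2.5/NOD was low without overlap, the effect in NOD.scid was 0.14 (95% interval -0.21 to 0.48), and the interaction was 1.59 (SE 0.22, limma adjusted p 0.00144). Of 41 measured stroma and matrix genes 4 were called, all above 0 (2.48% of all genes): Dcn, Nid1 (0.66), Pdgfra (0.57) and Col5a2 (0.52). That count was 1 or 2 with any 1 array left out. Over the whole list of 41, 13 genes fell in NOD (4.56% of all genes did) and 10 in NOD.scid (4.51%). Summed linear values of the list were 3235 to 3435 in NOD against 2556 to 2564 in BDC2.5/NOD. They were 2927 to 3318 in NOD.scid against 2732 to 2765 in BDC2.5/NOD.scid. Abca1, the exporter of cholesterol, had an interaction of 1.46 (SE 0.25, limma adjusted p 0.00507). Rnase4, a secreted ribonuclease, had 1.43 (SE 0.15, limma adjusted p 0.000138). Erdr1 was one-sided because NOD stood apart. Erdr1 read 9.30 and 9.33 in NOD against 7.98 and 8.04 in BDC2.5/NOD, and 7.66 and 7.57 in NOD.scid against 7.81 and 7.81 in BDC2.5/NOD.scid. Its interaction was 1.496 (SE 0.11, limma adjusted p 9.48e-06), and a second probe set gave 0.37 and did not pass (limma adjusted p 0.169). Adipoq, adiponectin of fat cells, was likewise highest in NOD (interaction 0.95), as was the ribosomal protein gene Rpl7 (0.70).

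**Figure D4:**
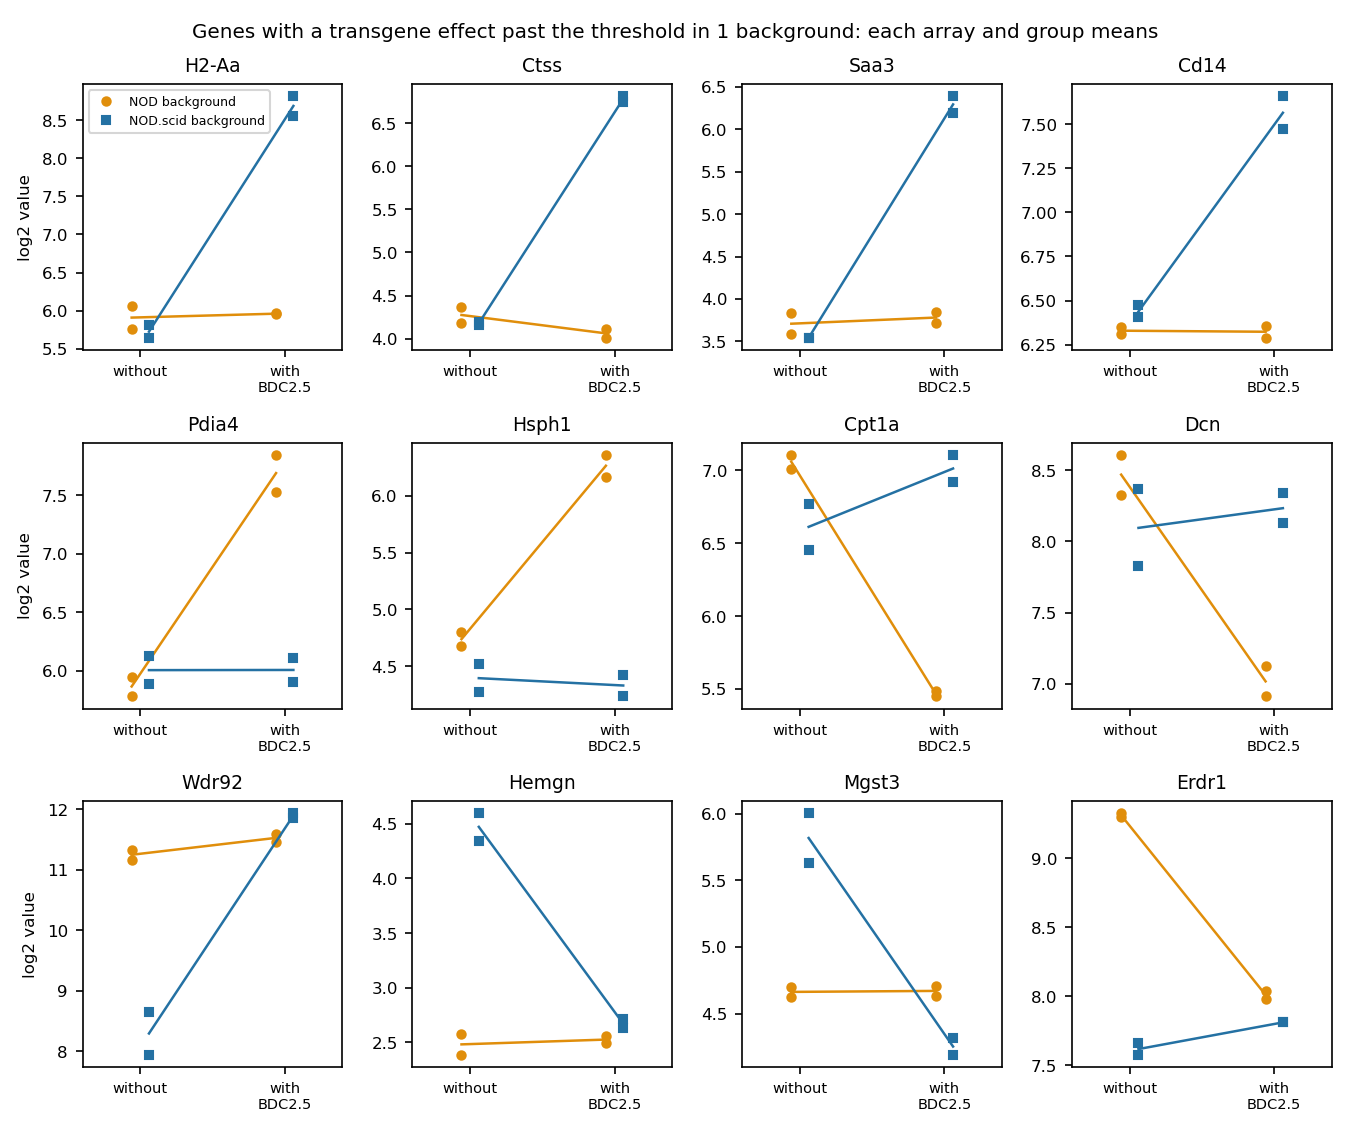
Log2 value on each array (vertical axes) without and with the BDC2.5 transgene (horizontal axes) in the NOD background (circles) and the NOD.scid background (squares) for 12 one-sided genes, with lines joining group means. The top row shows genes raised in NOD.scid (H2-Aa to 8.82 and 8.56), the middle row genes moved in NOD (Pdia4 to 7.85 and 7.53), and the bottom row genes in which NOD.scid or NOD without the transgene stood apart.

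An effect past the threshold in 1 background does not show that the other effect was 0, so its interval was read. Among the 164 genes one-sided in NOD.scid, the 95% interval of the effect in NOD lay within 0.5 either side of 0 for 134, and its median size was 0.13. Among the 182 genes one-sided in NOD, the interval of the effect in NOD.scid lay within 0.5 for 142, with a median size of 0.16. The other effect had the opposite sign in 116 of the 164 and in 140 of the 182. An opposite sign enlarges the interaction, so the call itself favours such genes and these counts show no tendency by themselves. Gains and losses were about even: 79 genes rose and 85 fell in NOD.scid alone, and 94 rose and 88 fell in NOD alone.

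The Reg family, most of it in the unequal class, had the largest transgene effects of the genes named here. Reg proteins are secreted lectins that acinar cells make in inflammation. Of the 5 measured Reg genes 4 rose in both backgrounds, where 2.46% of all genes rose in NOD.scid and 4.16% in NOD. The interaction was called for 3 of the 5, all below 0 (2.9% of all genes). Reg3b read 7.79 and 7.87 in NOD against 12.92 and 12.94 in BDC2.5/NOD, and 9.09 and 9.09 in NOD.scid against 12.91 and 12.86 in BDC2.5/NOD.scid. The transgenic groups were level, at 12.86 to 12.94, while the groups without the transgene were not, since NOD.scid lay above NOD. Reg3b therefore rose by 5.10 in NOD and by 3.79 in NOD.scid, an interaction of -1.31 (SE 0.11, limma adjusted p 1.5e-05). Its values are close to the largest value on the arrays (13.78), and whether the probe set still rises in proportion there was not tested. Reg2 read 8.05 and 7.96 in NOD against 12.08 and 12.28 in BDC2.5/NOD, and 9.65 and 9.60 in NOD.scid against 12.28 and 12.02 in BDC2.5/NOD.scid. Reg2 had the same shape, with an interaction of -1.65 (SE 0.14, limma adjusted p 2.59e-05). Reg3a read 6.72 and 6.58 in NOD against 11.56 and 11.70 in BDC2.5/NOD, and 8.47 and 8.37 in NOD.scid against 11.31 and 11.10 in BDC2.5/NOD.scid. For Reg3a NOD.scid lay above NOD and BDC2.5/NOD.scid slightly below BDC2.5/NOD, and the interaction was -2.20 (SE 0.14, limma adjusted p 1.27e-06). Second probe sets gave -2.59 for Reg3a, -2.15 for Reg3b and -0.61 for Reg2, the last of which did not pass (limma adjusted p 0.0642).

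Reg3g read 4.87 and 4.99 in NOD against 10.27 and 10.35 in BDC2.5/NOD, and 5.18 and 5.02 in NOD.scid against 10.03 and 9.65 in BDC2.5/NOD.scid. Reg3g had the largest transgene effects of the family, 5.38 in NOD and 4.74 in NOD.scid, and fell just outside the threshold for the interaction, which was -0.64 (95% interval -1.01 to -0.27, limma adjusted p 0.0515). Here the groups without the transgene lay close together, from 4.87 to 5.18. Reg1 was at 12.57 to 12.83 on all arrays, with an interaction of -0.16 (95% interval -0.43 to 0.11). Itih4, an inter-alpha-trypsin inhibitor heavy chain of the acute phase, behaved like Reg3a. Itih4 read 4.74 and 4.77 in NOD against 7.87 and 7.77 in BDC2.5/NOD, and 5.33 and 5.14 in NOD.scid against 6.63 and 6.48 in BDC2.5/NOD.scid. Its interaction was -1.74 (SE 0.14, limma adjusted p 1.48e-05). The RIKEN gene 1810009J06Rik rose by 2.82 in NOD and by 0.37 in NOD.scid, and its interaction of -2.44 (SE 0.13, limma adjusted p 3.87e-07) was the largest of the class below 0.

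Ins2, which encodes insulin, fell with the transgene in both backgrounds. Ins2 read 11.59 and 11.53 in NOD against 10.85 and 10.80 in BDC2.5/NOD, and 11.64 and 11.81 in NOD.scid against 10.35 and 10.20 in BDC2.5/NOD.scid. The groups without the transgene were close, at 11.53 to 11.81, BDC2.5/NOD.scid was lowest, and Ins2 fell by 1.45 in NOD.scid and by 0.73 in NOD (interaction -0.71 (SE 0.12, limma adjusted p 0.00548)). The call was lost without the first BDC2.5/NOD array (limma adjusted p 0.0545), and a dimmer Ins2 probe set had an interaction of 0.10 (0.804). Iapp, the amyloid peptide released with insulin, had effects of -1.37 and -0.74 and an interaction of -0.63 that did not pass (95% interval -1.09 to -0.17, limma adjusted p 0.133). Glucagon, Gcg, had an interaction of 0.14 (95% interval -0.29 to 0.56) and somatostatin, Sst, of -0.34 (95% interval -0.62 to -0.07). Of 6 measured islet hormone genes 1 was called (0 without the first BDC2.5/NOD array, 2 without the first BDC2.5/NOD.scid array), and of 18 other genes of beta cells and secretory granules 0 were called (1 without the first BDC2.5/NOD.scid array), against 5.38% of all genes. Summed hormone values were 3377 to 3472 in NOD against 2014 to 2077 in BDC2.5/NOD, and 3624 to 4024 in NOD.scid against 1384 to 1524 in BDC2.5/NOD.scid.

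Further genes of the unequal class show smaller shifts. Ddit4, an inhibitor of mTORC1 induced by stress and glucocorticoids, rose in both backgrounds and by more in NOD.scid (1.96 against 0.79, interaction 1.17 (SE 0.14, limma adjusted p 0.000318)). H2az2, a histone variant, fell in both and by more in NOD (-0.82 against -1.73, interaction 0.91). Among genes in which neither effect passed, Xist had the largest interaction. Its effects were 1.62 in NOD.scid and -2.23 in NOD, with an interaction of 3.85 (SE 0.92, limma adjusted p 0.0343), and the 2 NOD arrays and the 2 BDC2.5/NOD.scid arrays differed widely from each other, as given above. The next were Tbl1xr1 (0.89), Mef2a (0.83), S100a1 (-0.88), Mgat2 (-0.79) and 1110008P14Rik (-0.78). Each had effects of opposite sign that did not pass the threshold in either background, and this class nearly requires opposite signs. These calls were lost in 10, 8, 4, 11 and 7 of 20 alternative settings in the same order. The call of Xist was lost in 11.

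The remaining lists are given by their counts. Called were 1 of 32 proteasome genes, 1 of 32 cell cycle genes (Cdk1), 2 of 42 genes of the respiratory chain and 0 of 14 imprinted growth genes, against 5.38% of all genes. With 1 array left out these were 1 or 2, 0 to 2, 0 to 3 and 0 in the same order. Ribosomal protein genes had 4 called of 31 (3 above 0), glutathione and antioxidant genes 4 of 27 (2 above 0), adipocyte genes 2 of 20 (1 above 0), duct genes 4 of 21 (0 above 0) and genes of fuel and glucose control 6 of 18 (5 above 0). With 1 array left out these counts were 0 to 5 for ribosomal proteins, 2 to 4 for glutathione and antioxidant genes, 0 to 3 for adipocyte genes, 2 to 4 for duct genes and 4 to 6 for fuel and glucose control, each of the first 4 being at its lowest without a BDC2.5/NOD array. Glutathione genes also numbered 2 without the first NOD array, adipocyte genes 1 and ribosomal protein genes 2 without the first BDC2.5/NOD.scid, the first NOD.scid or the second NOD array. Among the genes of fuel and glucose control were Txnip, Pdk4, Cpt1a and Fkbp5, a glucocorticoid-induced co-chaperone (0.96), above 0 and the hexokinase Hk2 (-0.57) below 0. In the duct list Tff2, a trefoil peptide, had an interaction of -0.69 and the mucin Muc1 of -0.85. Of the 444 called genes 116 had another probe set, and for 23 of them another probe set was called in the same direction, for 3 in the opposite one. Of their 163 other probe sets 106 had the sign of the called one, and of the 60 above the median level 47 did.

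**Figure D5:**
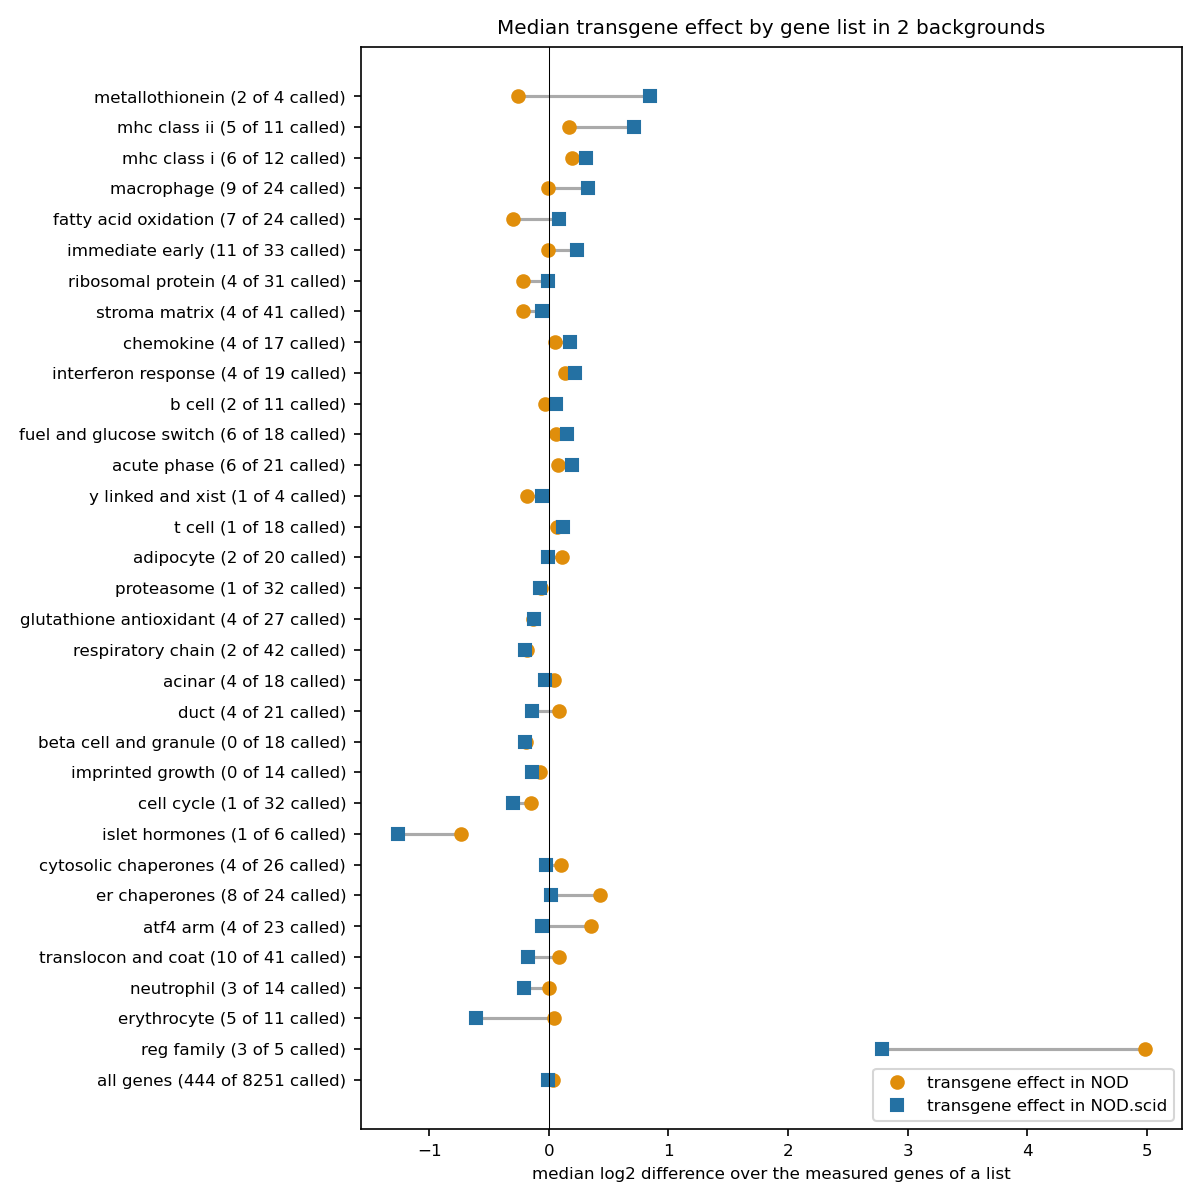
Median transgene effect (horizontal axis, log2) in NOD (circles) and NOD.scid (squares) over the measured genes of each list (vertical axis), ordered by the median interaction, with all genes at the bottom. Counts beside the names give genes called for the interaction; MHC class II genes had medians of 0.17 and 0.72, ER chaperones 0.43 and 0.02, and all genes 0.04 and -0.01.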

How the data were processed

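Whole pancreas RNA of 8 samples in 4 groups of 2 was measured on Affymetrix expression arrays, and groups were taken from the sample titles. The authors deposited 1 table of 12488 probe sets per array on a log scale. These deposited values were taken as log2 because they reached at most 13.78, which fits no natural or decimal logarithm of a scanner signal. How the authors corrected background, normalized and summarised probes was not given in the sources used here. Array medians lay between 4.24 and 4.30, and no further scaling was applied. Precision is limited by the number of arrays.

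Control probe sets (66) were left out. Of the 12422 tested, GEO's platform annotation gave 10833 exactly 1 symbol, 396 several and 1193 none, and 10817 symbols were found in RefSeq with 0 changed. No build is named with the values, so coordinates are given for RefSeq promoters alone. A model of 4 group means over the 8 arrays was fitted in limma 3.58.1 (R 4.3.3), with a variance trend, 4 residual and 8.07 prior degrees of freedom. Tests were moderated and two-sided, with Benjamini-Hochberg adjustment over the 12422 probe sets and a threshold of 0.05. SE is the standard error of a log2 difference.

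The contrasts, the gene lists (32) and the rule for named genes were chosen with earlier results of these data known. The rule took, among called genes of 1 symbol with a highest group mean above the median of all probe sets (4.27) and no overlap between the highest and the lowest group, the largest interactions by class and sign. These were 6 per sign for opposite effects, 5 for one-sided and unequal effects and 3 where neither effect passed, with up to 3 members per list and a set always reported (Reg, islet hormone, MHC and metallothionein genes, Hspa5, Xist and Prkdc). Other called list members are named to account for a list and were chosen after their values were seen.

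The fit was tested on simulated data for the interaction over 12422 probe sets, with 200 changed in each of 5 simulations. It recovered 25.6% of changes of 0.5, 98% of changes of 1 and 100% of changes of 2 or 3, and 6.37% of calls were false. The simulated noise was independent between probe sets and arrays, so these shares need not hold for the measured arrays. Alternatives covered scaling, a filter and an offset on low values, the variance prior, array weights, a block for the title number, the actin control, the BDC2.5/NOD pair, the threshold and each array left out. Leaving out 3 arrays of high actin control was added after seeing the data. Software for tables was pandas 2.3.3, and for plots matplotlib 3.10.9.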

Additional observations from a re-analysis of the deposited data

Results flagged for a closer look

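Each gene named for its interaction was flagged because its transgene effect differed between the 2 backgrounds by the test of the difference itself, the limma interaction at the adjusted threshold of 0.05. The value given is the interaction, the log2 effect in NOD.scid minus that in NOD. No explanation was weighed.

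Where the 2 effects had opposite directions, the interaction was 3.06 for Txnip, 2.95 for Pdk4, 2.92 for Igkv6-23, 2.77 for Sesn1, 2.13 for Cytip, 2.12 for Mt1, 1.93 for Sgk1 and 1.83 for Mt2. It was also 1.79 for Cd53 and 0.87 for Gadd45b. Below 0 it was -2.62 for Pdxdc1, -1.10 for Zfpm1, -1.09 for H13, -1.03 for Dynll1, -0.98 for Uqcrq, -0.92 for Isg20 and -0.87 for Sec61a1.

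Where the effect passed in NOD.scid alone, it was 3.33 for Wdr92, 2.91 for H2-Aa, 2.82 for Ctss, 2.70 for Errfi1, 2.68 for Saa3, 2.62 for B2m, 2.52 for Cd74 and 2.15 for Lyz2. It was also 2.04 for H2-Eb1, 1.32 for Iigp1, 1.13 for Cd14, 1.02 for Ccl9, 0.96 for Ccl8, 0.96 for Cxcl9, 0.87 for Ccl5 and 0.69 for Klk1. It was also 0.65 for Gbp3. Below 0 it was -1.84 for Hemgn, -1.57 for Mgst3, -1.32 for Prdx2, -1.31 for Tff1, -1.24 for H2ax, -1.16 for Camp, -1.01 for Dad1 and -0.91 for Slc4a1. It was also -0.91 for Psmb3, -0.70 for Cox5b, -0.69 for Tff2, -0.58 for Cdk1 and -0.47 for Ndufv1.

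Where the effect passed in NOD alone, it was 1.99 for Cpt1a, 1.59 for Dcn, 1.496 for Erdr1, 1.46 for Abca1, 1.43 for Rnase4, 1.42 for Acaa2, 1.16 for Btg1 and 0.95 for Adipoq. It was also 0.79 for Rps3a1, 0.70 for Rpl7, 0.67 for Jchain, 0.66 for Nid1, 0.65 for Cct5, 0.64 for Gstm1, 0.64 for Rps7 and 0.52 for Col5a2. Below 0 it was -1.82 for Pdia4, -1.62 for Pdia3, -1.59 for Hsph1, -1.34 for Ssr1, -1.32 for Fdps, -1.0 for Fasn, -0.91 for Atf5 and -0.85 for Manf. It was also -0.85 for Muc1, -0.83 for Psat1, -0.77 for Eif4ebp1 and -0.68 for Sycn.

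Where both effects passed in the same direction, it was 2.71 for Lrg1, 1.77 for H2-D1, 1.74 for H2-K1, 1.17 for Ddit4 and 0.91 for H2az2. Below 0 it was -2.44 for 1810009J06Rik, -2.20 for Reg3a, -2.18 for Car2, -1.74 for Itih4, -1.65 for Reg2, -1.61 for S100a9, -1.52 for Creld2 and -1.31 for Reg3b. It was also -1.16 for S100a8, -0.82 for Hbb-b2, -0.73 for Pla2g1b, -0.72 for Hspa5 and -0.71 for Ins2.

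Where neither effect passed by itself, it was 3.85 for Xist, 0.89 for Tbl1xr1, 0.83 for Mef2a and 0.78 for Ighm. Below 0 it was -0.88 for S100a1, -0.79 for Mgat2, -0.78 for 1110008P14Rik and -0.74 for Dnajb1.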

How the results depend on the processing

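All 444 called interactions kept their sign under every refit tried that tested them (388 of them under the filter on low values). These genes were chosen for a large interaction in the same arrays. Refits that changed only the variance prior or the threshold left its estimate as it was. Kept signs were thus in part fixed in advance. Of 101 named genes that were called, 65 were lost in none of 20 settings, and 0 reversed. Counts over all genes and of the classes stayed within 1.5 times the original ones under quantile normalization (435 calls), centred array medians (446), the offset (446), the filter on low values (455), no variance trend (401), a robust prior (479) and array weights (479), except that genes with neither effect past the threshold numbered 27 under centring and under the filter. Counts within lists moved further: under the filter interferon-response genes went from 4 to 1, chemokines from 4 to 2, B cell genes from 2 to 1, T cell genes from 1 to 0, ATF4 targets from 4 to 7 and proteasome genes from 1 to 2. Without the variance trend ER chaperones went from 8 to 5 and B cell and respiratory chain genes from 2 to 1 each. Respiratory chain genes were also 1 under quantile normalization, and proteasome genes 2 with a robust prior or array weights.

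With the actin control as a covariate 755 genes were called, 341 above and 414 below 0, in classes of 58 opposite, 268 one-sided in NOD.scid, 312 one-sided in NOD, 46 unequal and 71 with neither effect. With the BDC2.5/NOD pair as 1 sample 148 were called, 80 above and 68 below 0, in classes of 13, 73, 47, 9 and 6 in the same order, and all 148 were among the 444. The lone sample is then assumed to vary like the other groups. Without the 3 arrays of high actin control the count was 1170, 655 above and 515 below 0, in classes of 123, 327, 528, 63 and 129, with the spread taken from the BDC2.5/NOD pair and the prior. At an adjusted p under 0.01 it was 173, 87 above and 86 below 0, in classes of 13, 73, 64, 11 and 12, as fewer genes pass a stricter threshold. Classes drawn by effects of at least 0.5 gave 14 opposite genes and 129 with neither effect. Beyond what a setting's construction shows, the cause of these shifts was not tested.

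Leaving out each array in turn gave 147 to 377 calls, 76 to 202 above and 71 to 233 below 0. The classes then held 11 to 27 opposite genes, 70 to 151 one-sided in NOD.scid, 42 to 168 one-sided in NOD, 9 to 24 unequal and 13 to 44 with neither effect. The lowest counts came without the first (147) or second (161) BDC2.5/NOD array, followed by the first NOD array (254). Calls below 0 numbered 156 without the second BDC2.5/NOD.scid array and 159 without the first NOD.scid array, which also left 105 genes one-sided in NOD.scid. Without the second NOD.scid array 21 genes had neither effect, and without the second NOD array 116 were one-sided in NOD and 15 unequal.

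The title numbers (1 or none) were also fitted as a replicate block, which gave 309 calls, all among the 444, with 156 below 0, 16 unequal and 23 with neither effect. Deviations of same-numbered arrays correlated at -0.32 (NOD with BDC2.5/NOD.scid) to 0.29 (NOD with NOD.scid) between groups. Whether arrays of the same number shared a batch was not tested. Interactions of 0.5 were recovered in 25.6% of simulated cases, so under the simulated settings smaller differences would mostly be missed with 2 arrays per group. The simulation changed 200 of 12422 probe sets, where 586 were called in the data. It held no array differences such as those in the actin control and Xist.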

Other observations

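Of the 586 called probe sets, 32 were annotated to several genes and 32 to none, and these entered no count of genes. Several of the former belong to MHC class I and macrophage genes. A probe set shared by H2-Q genes had group means of 6.24 in NOD against 6.46 in BDC2.5/NOD, and 6.33 in NOD.scid against 8.18 in BDC2.5/NOD.scid, with an interaction of 1.62 (SE 0.13, limma adjusted p 1.24e-05). A probe set shared by both lysozyme genes had means of 5.32, 5.41, 5.53 and 7.53 in the same order and an interaction of 1.91 (SE 0.21, limma adjusted p 0.000207). One shared by the interferon-induced Tgtp genes had means of 3.18, 3.50, 3.07 and 4.87 and an interaction of 1.48 (SE 0.17, limma adjusted p 0.000299). In each of these BDC2.5/NOD.scid was the high group. They were chosen after their values were seen.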
